A study of Mus musculus with 9 samples.

Results

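The Fkbp5 locus was taken as the body of the mouse gene Fkbp5 (ENSMUSG00000024222.17, minus strand, chr17:28399094-28517527 on GRCm38, also called mm10) with 50 kb to each side, which gives a window at chr17:28349094-28567527. Every MACS2 peak and every MACE border pair that shared a base with this window was a member. There were 41 of the 30508 peaks in 6 lists and 4 of the 25244 border pairs in 9 lists. The 41 peaks fell into 17 distinct sites, where peaks that shared at least 1 bp, directly or through another peak, were joined.

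The lists come from ChIP-nexus in N2A cells, a mouse neuroblastoma line. In ChIP-nexus, pulled-down chromatin is digested with λ-exonuclease until the enzyme meets the crosslinked protein, which sharpens the position of each binding site. All cells were transiently transfected with plasmids for both EGFP-GR and mCherry-MR, so the cells of every treatment carried both receptors, and GR was pulled down by its EGFP tag and MR by its mCherry tag. The receptors were rat sequences by the study's methods, while the deposited description calls them mouse. N2A cells have no MR of their own and some untagged GR, which the pulldown does not see. Cells received either vehicle for 20 minutes (treatment i) or corticosterone (CORT) at 100 nM for 20 minutes (treatment ii), or the same CORT pulse and then washes and 40 minutes in medium without steroid (treatment iii, here called washout). Input chromatin, taken without a pulldown, stood beside each treatment. The authors combined the replicates before calling these peaks, so each receptor and treatment has 1 list. No value below has a replicate error, and no difference between lists was tested. The study also called CORT peaks in single replicates. Far fewer sites recurred in more than 1 replicate than the combined lists hold, above all for GR. Which of the peaks below recurred is not known from the lists. The lists hold no read counts, so the reads behind a single peak are not known, and the read totals that the study gives were not used here.

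Fkbp5 encodes FKBP51, an immunophilin that joins the HSP90 complex of the unliganded steroid receptors and lowers their affinity for hormone. Glucocorticoids raise its transcription, and the protein then holds the receptors back, which makes a short feedback loop inside the cell. GR and MR are closely related nuclear receptors that bind the same DNA element, the glucocorticoid response element (GRE), an inverted repeat of a 6-base half-site around 3 free bases. MR binds corticosterone more tightly than GR does.

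After CORT both receptors were listed along the whole gene, and after washout only MR was. The window held 13 GR peaks and 16 MR peaks after CORT, 12 MR peaks after washout, 0 GR peaks after washout, and 0 peaks of either receptor after vehicle. Each of these 3 lists had most of its peaks in a dense group around the upstream end of the gene. That group had 11 of the 17 sites within 11996 bp, or 5.49% of the window, and the other 6 sites were spread over 76678 bp of the gene body. No site lay downstream of Fkbp5.

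The sequences shown here are the best matches to a GRE within 100 bp of the strongest summit of a site. The consensus searched was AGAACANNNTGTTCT, which reads the same on both strands, and up to 3 mismatches were allowed over its 12 fixed positions. Capitals mark the bases that match the consensus, and all sequences are the plus strand of GRCm38 with 7 bases to each side. MR was listed after CORT and after washout at 9 sites, of which 6 had a GRE. The 5 of these with a GRE close to the summit are shown, while site 17, where it is 62 bp away, and sites 5, 6 and 10, which had none, are left out.
Site 16, chr17:28420314-28420342, 0 mismatches: agagcacAGAACAcccTGTTCTgaatgtg
Site 1, chr17:28523170-28523198, 2 mismatches: gagcgaaAGAACAtccTGTgCcgccgccg
Site 2, chr17:28522120-28522148, 2 mismatches: tgagcatgGAACActtTGTcCTccttccc
Site 3, chr17:28518172-28518200, 3 mismatches: tggggctgGAACAcaaTGTcCcgggcgag
Site 9, chr17:28512886-28512914, 3 mismatches: ctttgctgGAACAcaagGTaCTgcaccgt

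The next 4 lie at sites with both receptors after CORT and neither after washout, and are shown for contrast. The last of them, at site 12, has its best match only at 4 mismatches and so was not counted as a GRE.
Site 7, chr17:28513895-28513923, 2 mismatches: gctgcccAGAACAcagTGTcCcccagaga
Site 13, chr17:28478247-28478275, 3 mismatches: gctgctatGAACAtccTGTaCcagcctct
Site 15, chr17:28445058-28445086, 3 mismatches: cagaagggGAACAcccaGTgCTcctgtta
Site 12, chr17:28484945-28484973, 4 mismatches: caagcgctGtACAcccTGTcCcgagcccc
Over all 9 sites with MR after CORT and after washout, the best match within 100 bp of the summit had 0 to 4 mismatches with a median of 3. Over the 5 sites with MR after CORT but not after washout it had 2 to 4, also with a median of 3.

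Where the upstream group stands relative to the gene depends on the annotation. GENCODE M21 gives Fkbp5 15 transcripts with more than 1 start region. Its long coding transcripts start at 28517524, close to the upstream end of the gene, and its principal transcript starts at 28486149. RefSeq places the whole gene at chr17:28398753-28486149, so its start lies 31.378 kb downstream of the GENCODE end. By GENCODE, 14 of the 17 sites lay inside Fkbp5 and 3 upstream of it. By RefSeq, 6 lay inside the gene and 11 upstream of it. Within the upstream group 8 sites change sides in this way and 3 lie upstream by both. Distances below are from the GENCODE end of the gene at 28517527, called the upstream start, unless the RefSeq start is named.

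**Figure D1:**
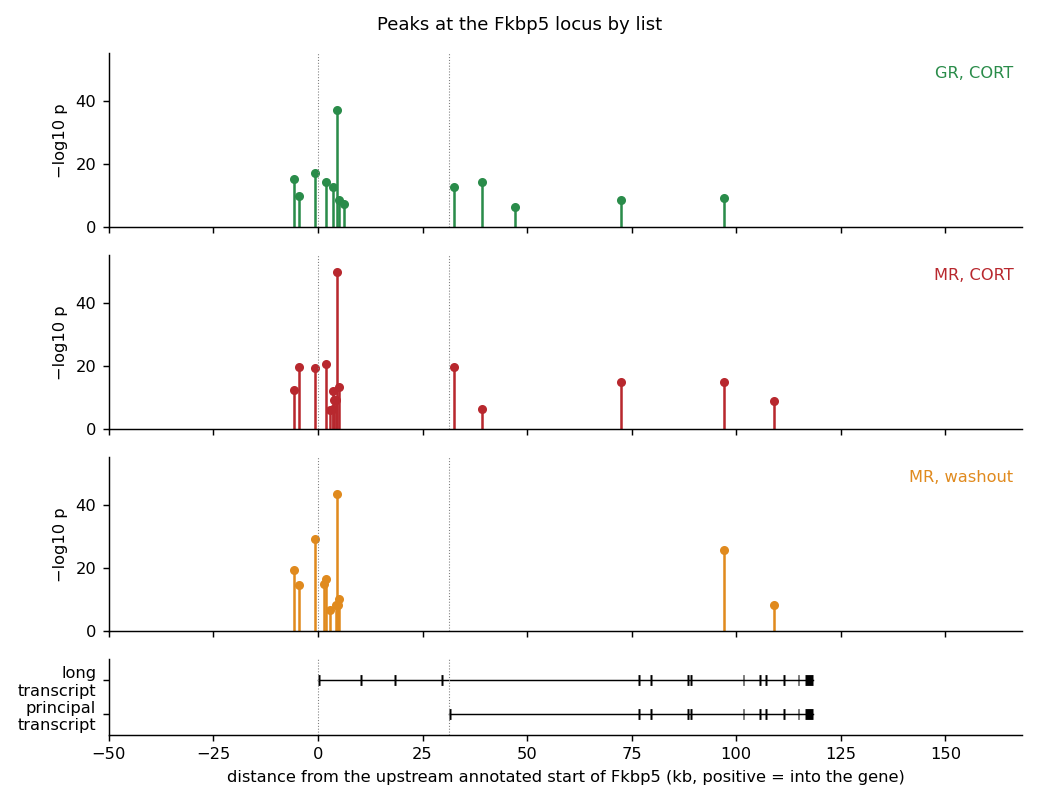
Summit position of each peak in kb from the upstream annotated start of Fkbp5 (x axis, positive into the gene) against its −log10 p (y axis), in 1 panel for each list with peaks, above the exons (boxes) of a long transcript and of the principal transcript. Dotted lines mark the upstream start and the RefSeq start. The strongest peak of each list stands just inside the upstream start, and the 4 sites that follow the RefSeq start have no MR washout peak.

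The strongest site of the locus was site 9 (chr17:28512535-28513297) in every list that had peaks there. It lies in intron 1 of the long transcripts, with its strongest summit 4616 bp inside the upstream start. Besides the GRE printed above, the site holds a better match, with 2 mismatches, at chr17:28513125-28513139. That match is more than 100 bp from the strongest summit, but within 100 bp of the summit of the main MR washout peak at 28513056. The strength of a peak is given as −log10 p against input, as the peak caller wrote it. This grows with depth, so it is compared only within a list, by rank, with ties at their mean rank. At site 9 the GR CORT peak had a −log10 p of 37.0, rank 26.5 of 10602. The MR CORT peak had 49.7, rank 11 of 14638, and the MR washout peak had 43.6, rank 13.5 of 4885. All 3 stood above the 99.7th percentile of their list, and they are wide for their lists. Their widths were 612, 640 and 476 bp, against list medians of 121, 62 and 70 bp. Beside the single GR peak of this site, MR had 2 peaks after CORT and 3 after washout. The smaller MR peaks at the edges were weak, at 9.17 after CORT and 8.28 each after washout.

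A further 6 sites had GR and MR after CORT and MR after washout, and 5 of these stood in the upstream group with site 9. At site 3 (chr17:28518103-28518278), 649 bp upstream of the upstream start and outside any annotated gene, the −log10 p was 17.2 for GR CORT, 19.3 for MR CORT and 29.3 for MR washout. These are percentiles of 93.3, 93.3 and 98.3 in their lists, so the site stood high in each. Site 5 (chr17:28515527-28515747), 1892 bp inside the upstream start, had 14.2, 20.7 and 16.5 in the same order. Site 10 (chr17:28512415-28512509) had 8.66, 13.4 and 10.4 and is separated from site 9 by 25 bp, so it may equally be read as the edge of a single broad site.

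Further upstream, site 2 (chr17:28522059-28522194) had 9.99 for GR CORT, 19.6 for MR CORT and 14.7 for MR washout, 4613 bp upstream of the upstream start. Site 1 (chr17:28523142-28523266) lay 5664 bp upstream, in an exon of E230001N04Rik, a long noncoding RNA on the opposite strand, and its washout peak also touched Gm20109, a noncoding RNA on the Fkbp5 strand. Its values were 15.3 for GR CORT, 12.4 for MR CORT and 19.3 for MR washout. From the RefSeq start the same summit is 37042 bp away.

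**Figure D2:**
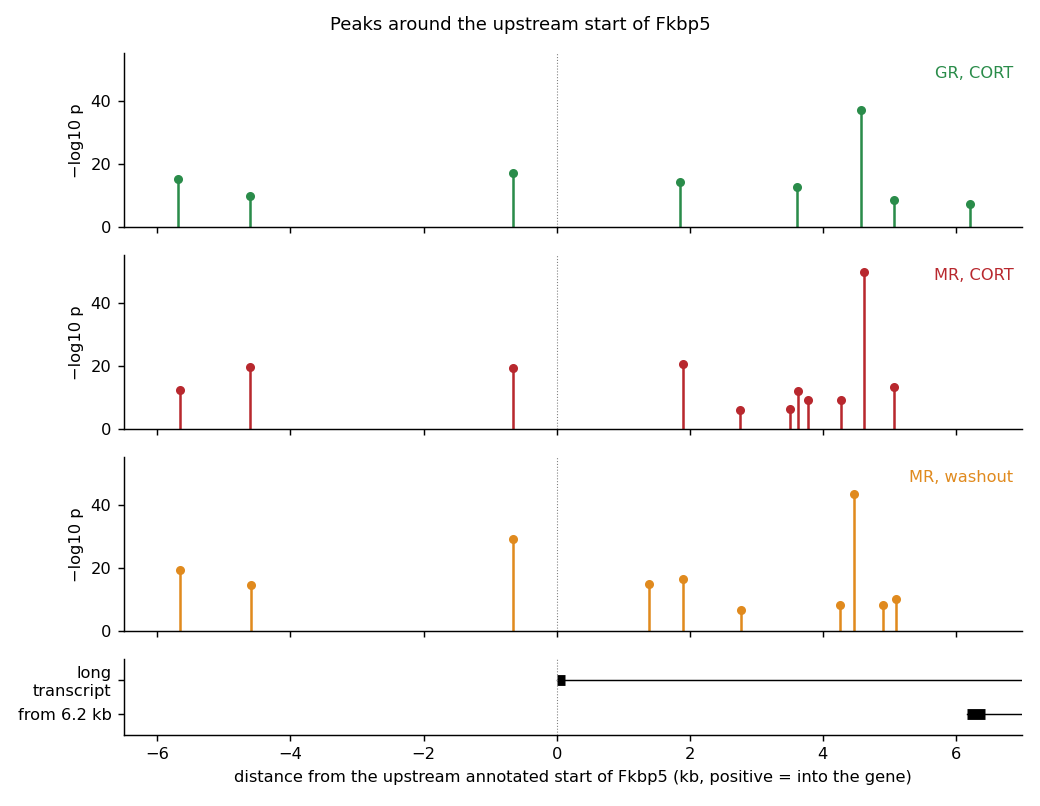
The same plot for the 5′ end, with summit positions in kb from the upstream start (x axis) and −log10 p (y axis), above the exons (boxes) of a long transcript and of the transcript that starts at 28511357. The peaks of the 3 lists line up at 6 sites of this group, and the summit nearest 1.4 kb is seen only in the MR washout panel.

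Deep in the gene, site 16 (chr17:28420217-28420425) was another site with MR after CORT and after washout. It lies in intron 5 of the principal transcript, 97171 bp inside the upstream start and 65793 bp inside the RefSeq start. Its −log10 p was 9.43 for GR CORT, 15.1 for MR CORT and 25.8 for MR washout. In rank it was 4592 of 10602, 1857.5 of 14638 and 138 of 4885, so its percentile was 56.7 for GR CORT, 87.3 for MR CORT and 97.2 for MR washout. This is the site with the exact GRE printed above. It holds a further GRE with 2 mismatches, AcAgCAattTGTTCT at chr17:28420368-28420382. Between these lies a weaker GRE match at chr17:28420352-28420366, which contains the MR washout summit at 28420356. The GR and both MR peaks cover all 3 elements.

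Site 17 (chr17:28408397-28408512), in intron 8 of the principal transcript, was the site nearest the 3′ end and had MR alone, at 8.82 after CORT and 8.28 after washout. Site 6 (chr17:28514722-28514794), 2773 bp inside the upstream start, also had MR alone, at 6.28 and 6.76. Both pairs are weak for their lists, with percentiles of 45.8 and 34.4 at site 17 and 11.1 and 13.3 at site 6. No GR peak was listed at these sites, and whether the depth of the GR list limited this was not tested.

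At 4 sites both receptors were listed after CORT and neither after washout, and 3 of these are in intron 1 of the principal transcript. Site 12 (chr17:28484908-28485074) is the closest of all sites to the RefSeq start, 1199 bp inside it. It had a −log10 p of 12.8 for GR and 19.6 for MR, the same MR value as site 2, where MR was also listed after washout. Site 13 (chr17:28478196-28478319) had 14.2 for GR and 6.54 for MR. Site 15 (chr17:28445013-28445115) had 8.66 for GR and 15.1 for MR, the same MR value as site 16. Site 7 (chr17:28513850-28514032), 3609 bp inside the upstream start, had 12.8 for GR and 11.98 for the stronger of its 2 MR peaks. The sites without an MR washout peak were therefore not all weak after CORT. The MR values of sites 12 and 15 were tied with those of sites that had an MR washout peak.

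The remaining 4 sites were each seen in a single list. GR alone was listed at site 14 (chr17:28470421-28470544), with 6.41 and a percentile of 13.5, and at site 11 (chr17:28511271-28511351), with 7.38 and a percentile of 25.9. Site 11 lies on the untranslated part of the exon that opens the transcript starting at 28511357. Site 8 (chr17:28513731-28513770) had MR after CORT alone, with 9.17 and a percentile of 51.2. It stands 79 bp from site 7, where both receptors were listed after CORT, and its summit lies in a repeat. Site 4 (chr17:28516108-28516170) had MR after washout alone, with 15.1 and a percentile of 86.3. The nearest MR CORT peak to site 4 was 391 bp away and the nearest GR CORT peak 361 bp away. Among the 1189 MR washout peaks of the genome without an overlapping MR CORT peak, site 4 held rank 15.5, where their median −log10 p was 7.69 and 18 reached 15.

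**Figure D3:**
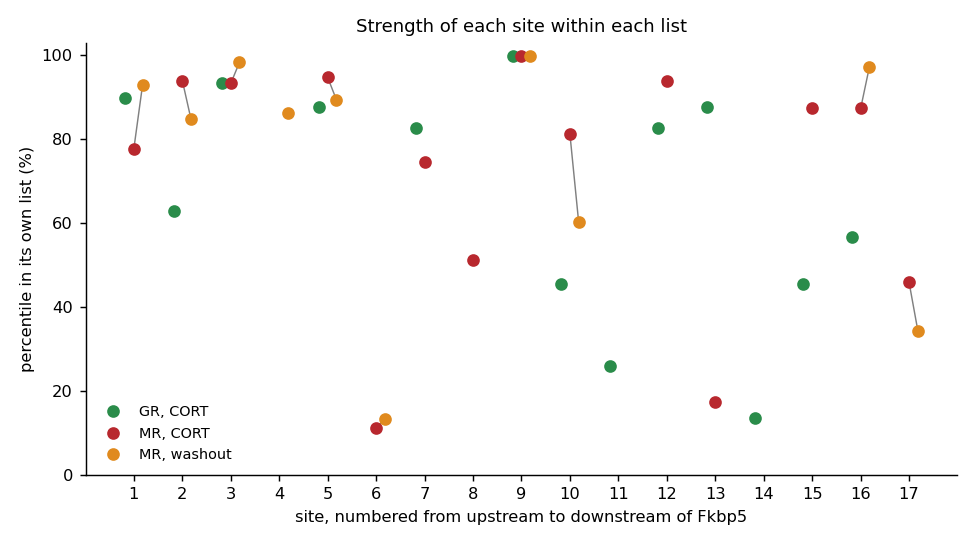
Percentile of the strongest peak of each site within its own list (y axis, in %) for the 17 sites numbered from upstream to downstream (x axis), coloured by list, with grey lines joining MR after CORT to MR after washout. Site 9 is near the top in 3 lists, and the MR percentile was higher in the washout list at sites 1, 3, 6 and 16 and lower at sites 2, 5, 9, 10 and 17. The lists differ in length, so a difference in percentile does not show a change in binding.

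Read over the locus, 11 of the 13 GR CORT peaks overlapped an MR CORT peak (84.6%, 95% Wilson interval 57.8% to 95.7%), against 61% of all GR CORT peaks. In the other direction 13 of the 16 MR CORT peaks overlapped a GR CORT peak (81.2%, 57.0% to 93.4%), against 47.6% of all MR CORT peaks. The intervals cover counting error only and take peaks as independent, although neighbouring peaks share a locus. GR and MR summits lay 2 to 44 bp apart at the 11 shared peaks, with a median of 19 bp, against 26 bp over the 6471 GR CORT peaks of the genome that overlapped an MR CORT peak.

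Of the 16 MR CORT peaks, 10 were overlapped by an MR peak after washout (62.5%, 38.6% to 81.5%), against 24.6% of all MR CORT peaks. The study displays Fkbp5 as an example of reduced GR and retained MR binding after washout, so the locus is no neutral sample of the list. The washout list is the shorter, and with the MR CORT list limited to as many of its strongest peaks, it was 7 of 10 at the locus against 48.4% of the list. The locus peaks were also stronger than the list as a whole, with a median −log10 p of 12.9 against 9.17, and strong peaks were overlapped more often in the whole list. Among peaks under 10, 3 of 6 at the locus were overlapped after washout, against 11.8% of the list. From 10 to 15 it was 2 of 3 against 30.4%, from 15 to 20 it was 3 of 5 against 59.5%, and from 20 upward 2 of 2 against 87.0%. The locus stood above the list in the bands under 15, where it has 9 peaks, and near it from 15 upward, where it has 7. The overlapped locus peaks under 15 include the weak edge peak of site 9, at 9.17, and the peak of site 10, at 13.4. Site 10 stands 25 bp from site 9, so these 2 may be edges of the strong peak of site 9 rather than independent weak peaks.

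**Figure D4:**
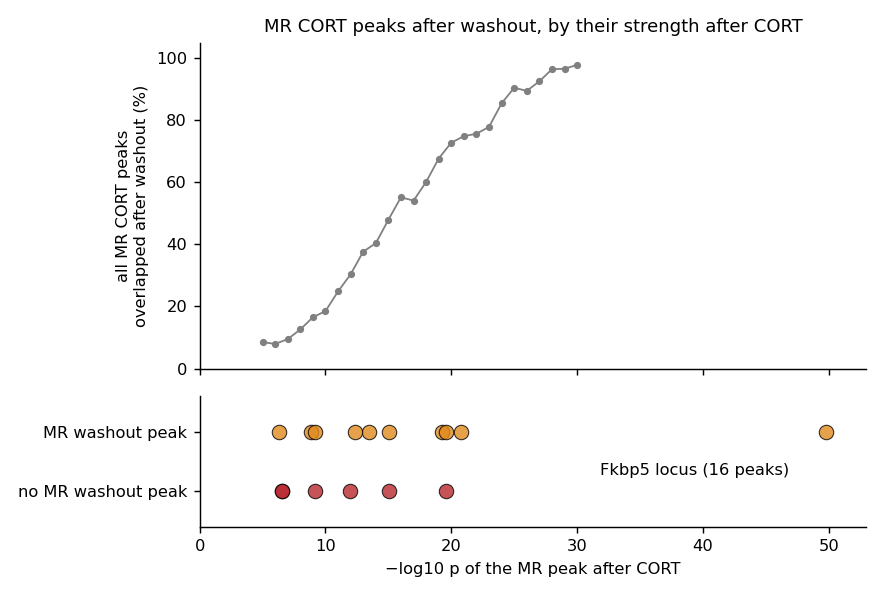
Upper panel, share of all MR CORT peaks overlapped by an MR washout peak (y axis, in %) in sliding bins of ±1 around each −log10 p (x axis). Lower panel, the 16 MR CORT peaks of the Fkbp5 locus on the same x axis, in an upper row where overlapped after washout (10) and a lower row where not (6). The share in the whole list rises with strength, and the 2 rows of locus peaks overlap between 6 and 20.

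In the reverse direction, 11 of the 12 MR washout peaks overlapped an MR CORT peak (91.7%, 64.6% to 98.5%), against 75.7% of all MR washout peaks. MR summits after CORT and after washout lay a median of 13.5 bp apart at the 10 overlapped peaks, with the widest gap, 145 bp, inside the broad peak of site 9, and the median over 3597 such peaks of the genome was 17 bp. MR washout peaks overlapped 7 of the 13 GR CORT peaks, against 28.2% of all GR CORT peaks, and GR CORT peaks overlapped 8 of the 12 MR washout peaks, close to the 65.6% of the list. None of the 13 GR CORT peaks overlapped a GR washout peak. With 2.13% of all GR CORT peaks overlapped in this way, an empty locus is near what the list as a whole shows.

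A GRE within 100 bp of the strongest summit was found at 9 of the 17 sites. By peaks, 8 of 13 GR CORT peaks had one against 37.7% of that list, 9 of 16 MR CORT peaks against 39.9%, and 5 of 12 MR washout peaks against 45.5%. Windows of the same length 1000 bp from the summits of all peaks of these lists held one in 14.6% to 15.3% of cases. The centre of the best GRE was 6 to 28 bp from the summit at 8 of the 9 sites and 62 bp away at site 17. MR washout was listed at 6 of the 9 GRE sites. Of the 9 sites with MR after CORT and after washout 6 had a GRE, and of the 5 with MR after CORT only 3 did, so GRE sites were found in each group at similar shares. Over the whole MR CORT list, 29.9% of peaks with a GRE and 21.05% of those without were overlapped after washout. Of the other motifs, AP-1, searched as TGANTCA, was found at sites 3 and 17. NF-1, searched as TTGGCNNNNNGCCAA with at most 2 mismatches in 10 fixed positions, was found at site 3. The motif of the GATA family of zinc finger factors, searched on both strands and spelled AGATAA, was found at site 10. No match of one motif overlapped a match of another at the 17 sites. Over all MR CORT peaks AP-1, NF-1 and GATA were found at 10.1%, 8.60% and 12.6%, against 6.19%, 6.31% and 10.6% of the windows 1000 bp away. By peaks, AP-1 was found at 2 of the 16 MR CORT peaks of the locus and at 3 of its 12 MR washout peaks, against 11.7% of all MR washout peaks.

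The exact GRE of site 16 is a rare sequence. Chromosomes 1 to 19, X and Y hold 639 exact matches, of which 2.82% were inside a GR CORT peak, 3.6% inside an MR CORT peak and 2.66% inside an MR washout peak. Of the 24 MR CORT peaks with an exact GRE within 100 bp of the summit, 14 were overlapped by an MR washout peak (58.3%), and site 16 was among them.

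The RefSeq promoter of Fkbp5 (chr17:28486100-28486399, from 250 bases before the start to 50 after it) held no peak of any list. The nearest was the GR CORT peak of site 12, 1026 bp away. None of the 4 motifs was found in that window, where 14.5% of 32851 RefSeq promoters hold a GRE, 7.81% an AP-1, 11.2% a GATA and 11.8% an NF-1 match by the same letters.

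MACE border pairs, the stretches between exonuclease stops on opposite strands, were few at the locus, and those listed were of MR. After CORT there were 3, at site 3 (chr17:28518130-28518186), site 16 (chr17:28420362-28420449) and site 9 (chr17:28512972-28513015). They lay in 3 of the 16 MR CORT peaks, against 10.4% of all MR CORT peaks with a border pair. At site 16 the pair held the GRE with 2 mismatches and not the exact one, and it reached into the match at chr17:28420352-28420366. At site 3 it reached into the GRE printed above. After washout there was 1, at site 9 (chr17:28512871-28512892), which ended at the base before the printed GRE of that site. MACE gave these 4 pairs p-values between 0.00075 and 0.00814. The vehicle, GR and input lists had none in the window. The inputs had 99 to 126 pairs on all of chromosome 17, which is 0.228 to 0.290 for a window of this length, so an empty window says little about the background there. The GR CORT list of border pairs used here has 139 entries in all, 2 of them on chromosome 17. It holds fewer pairs than the study describes for GR, so the lack of GR pairs at the locus cannot be read as a difference from MR.

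Few protein-coding genes had as many peaks. Counting peaks in a gene or within 5 kb of it, the flank that the study used, Fkbp5 had 12 GR CORT, 15 MR CORT and 11 MR washout peaks. It ranked 30, 44 and 7 among 21938 protein-coding genes, of which 17.7% had any GR CORT peak, 20.5% any MR CORT peak and 9.43% any MR washout peak. Fkbp5 with 5 kb to each side is 128.434 kb long and longer genes can hold more peaks. Per 100 kb its ranks were 316, 285 and 114. The genes above it by MR washout peaks were Gm20388, Gse1, Slit3, Nr3c2, Frmd4a and Nr3c1, and all but Nr3c1 were at least 355.571 kb long by this measure. Gm21738 was tied with Fkbp5 at 11. Unlike Fkbp5, some of these genes also had peaks after vehicle. Gm21738 had 7 GR and 4 MR vehicle peaks, Nr3c2 had 9 and 10, Nr3c1 had 8 and 9, and Gm20388 had 1 and 0.

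The genes whose counts over the 6 lists were most like those of Fkbp5, by Euclidean distance of log2(peaks + 1), were Dlc1, Col4a1, Dgki, Nsmce2 and Magi1. Dlc1 had 11 GR CORT, 16 MR CORT and 9 MR washout peaks over 395.393 kb. Col4a1, a basement membrane collagen, had 12, 17 and 9 over 124.404 kb, a length close to that of Fkbp5. Dgki, a diacylglycerol kinase, had 10, 17 and 8. Nsmce2, a SUMO ligase of the SMC5/6 complex, had 10, 13 and 8, and its strongest MR washout peak, at 41.7, was near the 43.6 of Fkbp5. Magi1, a junctional scaffold protein, had 11, 12 and 8. None of them had a GR washout or a vehicle peak.

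**Figure D5:**
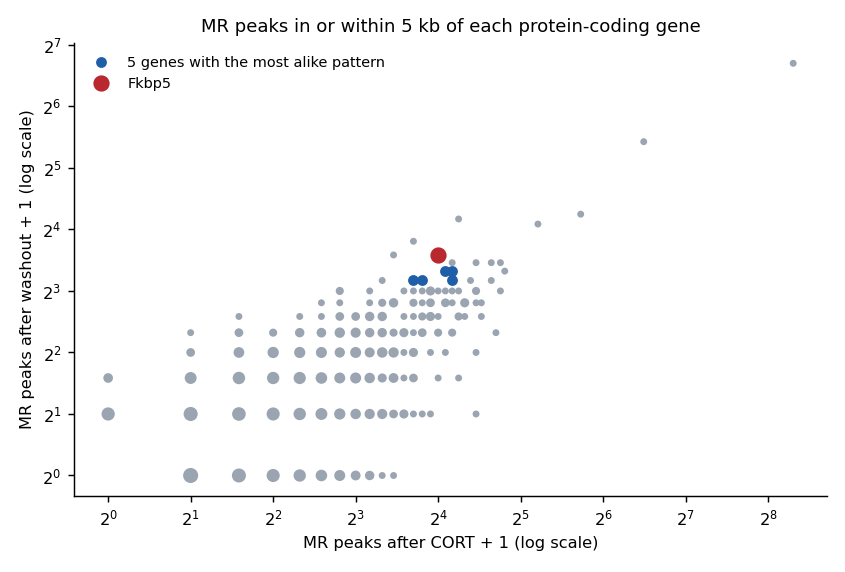
Number of MR peaks after CORT plus 1 (x axis, log scale) against MR peaks after washout plus 1 (y axis, log scale) for protein-coding genes with an MR peak in the gene or within 5 kb, where larger grey points stand for more genes. Fkbp5, with 15 and 11 peaks, lies above the 5 genes with the most alike counts.

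Among its neighbours, the noncoding E230001N04Rik held the peaks of site 1 in 3 lists and Gm20109 touched 1 of them. Tead3, Tulp1, Armc12, Clpsl2 and Clps, the other protein-coding genes of the window, had 0 peaks in their bodies in all 6 lists.

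In the FKBP family, which holds the peptidyl-prolyl isomerases related to FKBP51, GR CORT peaks were found at 5 of 17 genes and MR CORT peaks at 7 of 17, against the 17.7% and 20.5% of all protein-coding genes. These counts include Fkbp5, and without it they were 4 and 6. Fkbp2 had 2 GR CORT peaks and 1 MR CORT peak, with a highest −log10 p of 20.3 and 16.5. Fkbp1b and Fkbp14 had 1 of each, Fkbp10 had GR alone, and Fkbp1a, Fkbp3 and Fkbp7 had MR alone. Fkbp4, which encodes FKBP52, the immunophilin that takes the place of FKBP51 in the activated complex, had 0 peaks in all lists. After washout 1 of the 17 genes, Fkbp5, had an MR peak, against 9.43% of all protein-coding genes.

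Of the 12 genes of the receptor complex, 10 had 0 peaks in all 6 lists. Among all protein-coding genes, 17.7% had a GR CORT peak and 20.5% an MR CORT peak. The 10 genes are Hsp90aa1 and Hsp90ab1 for HSP90, Hspa8 and Dnajb1 for HSP70 and HSP40 chaperones, Stip1, Ptges3 (p23), Ppid (CYP40), Ppp5c, Bag1 and Fkbp4. The other 2, Nr3c1 and Nr3c2, are the genes of GR and MR, which the cells carried on plasmids. They had peaks in every list, vehicle included, with 8 and 9 GR vehicle peaks. As they also had peaks without CORT, these 2 genes are not set against the share of all genes.

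Among 12 genes known as early glucocorticoid targets, 8 had a GR CORT peak against 17.7% of all protein-coding genes, 8 an MR CORT peak against 20.5%, 7 an MR washout peak against 9.43%, and 1 a GR washout peak against 0.67%. That gene was Nfkbia, an inhibitor of NF-κB, with a −log10 p of 14.2 after washout and 55.7 after CORT for GR. Zbtb16, a transcription factor, came closest to Fkbp5 in number, with 3 GR CORT, 4 MR CORT and 5 MR washout peaks. Per1, a clock gene, had 2, 1 and 2, and Sgk1, a kinase of ion transport, had 2, 2 and 1. Klf9, Mt1 and Sult1a1 had 0 peaks in these lists. Fkbp5 had more peaks in each of the 3 lists than any of the 12. These counts are not scaled to gene length, and Fkbp5 with its flanks spans 128.434 kb.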

How the data were processed

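ChIP-nexus of EGFP-GR and mCherry-MR in N2A cells gave 6 MACS2 peak lists and, with input, 9 lists of MACE border pairs from 9 samples. The authors trimmed reads by quality, aligned them to mm10 with Bowtie2, removed copies with the same random barcode, kept uniquely mapped reads and combined replicates. Per the labels MACS2 was version 2.1.1.20160309, called against input. The deposited −log10 p was used as peak strength. The column headed fold enrichment holds −log10 q, and the deposited score is the whole part of 10 times it for all but 1 peak, of the MR washout list. The last deposited column, headed as −log10 q, is the offset of the summit. Border pairs carry a deposited p-value from MACE. How replicates entered MACE is not given in the sources used here. The deposited lists carry no read counts, so the reads behind single peaks are not known. The read totals that the study gives were not used, and the intervals, at 95%, cover counting error only.

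A shared stretch of at least 1 bp counted as an overlap. Places came from GENCODE M21 and RefSeq (GRCm38.p6), whose chromosome 17 is the build of the files, and lower-case reference bases marked repeats, in which 4 of the 41 summits lay. Motifs were searched within 100 bp of summits on both strands. Sequences are RefSeq's GRCm38. Python 3.11.15 with numpy 2.4.6, pandas 2.3.3, scipy 1.17.1, pysam 0.24.0, matplotlib 3.10.9 and samtools 1.23.1 were used, and the functions were checked on simulated peaks. Each group is 1 list, so no tests between groups were made. Named genes were Fkbp5, the genes of the window, 3 gene lists and the 5 genes with the most alike counts, plus the genes with at least as many MR washout peaks, which were added after their values were seen. The members and lists were chosen with earlier results of these data known.

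The alternatives changed the −log10 q threshold, window, overlap rule, list length, motif mismatches and distance, ranking measure and gene flank. Leaving out a replicate was not possible.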

Additional observations from a re-analysis of the deposited data

How the results depend on the processing

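Of 58 alternative values, 46 stayed within 1.5 times a count or inside the main interval of a percentage, and 12 moved. The number of sites was 13 to 22 against 17 and the 4 overlap percentages recomputed (MR CORT by MR washout, GR CORT by MR CORT and the reverse of each) stayed inside their intervals. With lists of equal length the share of all MR CORT peaks overlapped after washout was 48.4% against 24.6%. The other 3 overlaps were not recomputed. With at most 2 mismatches the share of sites with a GRE was 23.5% and with at most 4 it was 100%, against 52.9%. At 4 mismatches 55.5% of windows 1000 bp from summits also match, and at 2 mismatches 1.79%. The rank of Fkbp5 by number of peaks went from 30 to 62 (50 kb flank) or 316 (per 100 kb) for GR CORT, from 44 to 76 or 285 for MR CORT, and from 7 to 11 or 114 for MR washout. With a 50 kb flank, 2 of the 5 most alike genes were shared. The RefSeq gene body, an alternative chosen after seeing the data, held 5 GR CORT, 5 MR CORT and 2 MR washout peaks against 13, 16 and 12 in the window, because it starts downstream of the dense group. No paired analysis was possible because each condition has 1 list and the labels carry no replicate numbers. For the same reason no replicate could be left out. Depth per peak was not known from the files and limits which weak peaks are listed.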

Other observations

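Most GRE-like sequences of the locus were in no peak. The window held 272 matches with at most 3 mismatches, 1 per 0.803 kb, and 15 of them overlapped a site. At 2 mismatches or fewer there were 34, of which 6 overlapped a site, and at 1 or fewer there were 5, of which 1 did. The window held 2 exact matches. Besides the one of site 16, AGAACAagcTGTTCT at chr17:28442419-28442433, in the body of Fkbp5, overlapped no peak of any list. The other matches with 1 mismatch were AGAAtAcacTGTTCT at chr17:28415884-28415898 in the gene, and AGAcCAgccTGTTCT at chr17:28353368-28353382 and AGAACAtatTcTTCT at chr17:28376719-28376733 downstream of it.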
